A study of Mus musculus with 8 samples.

Results

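Srcap, 7 subunits of its H2A.Z-exchange complex and the related remodeler ATPase gene Ep400 were followed through 8 mouse oral carcinomas, together with Gm42715, a predicted gene that lies over Srcap. The members are the 10 rows of a 55450-gene count table that carry the symbols Srcap, Gm42715, Ep400, Yeats4, Ruvbl1, Ruvbl2, Actl6a, Znhit1, Vps72 and Dmap1, and all 10 passed the filter on low counts that left 16911 genes. They were selected with results of these tumours already known, so their own levels and fold changes are given as a description. Where the fit over all genes called or did not call a member, this is listed but not read as a test of that member.

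SRCAP is an ATPase of the SNF2 family that works in a large complex to swap the histone H2A for its variant H2A.Z in nucleosomes, chiefly at promoters and enhancers. The related TIP60-p400 complex joins a second such ATPase, EP400, to the acetyltransferase KAT5. Both complexes hold the paired AAA+ ATPases RUVBL1 and RUVBL2, the actin-related protein ACTL6A, the acetyl-lysine reader YEATS4 (GAS41), DMAP1 and VPS72 (YL1), which carries the H2A.Z-H2B dimer, and ZNHIT1 belongs to the SRCAP complex. H2A.Z at promoters is known to bear on transcription, DNA repair and the cell cycle, and ACTL6A is well known from squamous carcinomas.

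The tumours grew in the flanks of C57BL/6 mice from MOC1, an established mouse line of oral squamous cell carcinoma, and all mice received anti-PD-1, an antibody that blocks an immune checkpoint, for 32 days. Alongside it, 3 mice were given control antisense oligonucleotides (ASOs, short strands that bind a chosen transcript) and 5 were given ASOs against Smyd3, a lysine methyltransferase gene. Of the 5, the labels mark 2 as responders (replicates 1 and 3) and 2 as non-responders (numbered 1 and 2 here in listing order), and leave 1 (replicate 2) without a mark. Response is an outcome of treatment and not an assigned group, ages and ASO sequences are not given in the sources used here, and all tumours come from 1 cell line. The labels name the tissue as tongue carcinoma although the tumours were grown in the flank. Tumours were frozen whole, and polyadenylated RNA was sequenced.

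The 8 libraries held 22103853 to 27258700 expected counts. Before further scaling, 1 CPM (a count scaled to a library of 1000000 counts) stood for 22.1 to 27.3 reads. Printed CPM also carry a TMM scaling factor for each library, from 0.964 to 1.04. Smyd3 itself, the ASO target, measured 10.6 to 11.9 CPM in the controls and 4.38 to 9.26 CPM in the Smyd3 ASO tumours, with no overlap, but its log2 fold change of -0.80 (SE 0.29) did not pass in edgeR's quasi-likelihood test (adjusted p = 0.246). Summed markers of basal keratinocytes and squamous carcinoma were high in every tumour, at 18598 to 39707 CPM. The whole tumours also differed in other cells. Summed skeletal muscle markers ran from 17.2 to 61.3 CPM in controls and from 503 to 9149 CPM under Smyd3 ASO. Adipocyte markers ran from 0.421 to 0.499 against 2.12 to 181 CPM, with Lep at 0 in the controls, and fibroblast markers from 4789 to 8225 against 2999 to 3529 CPM. These 3 marker lists (8, 6 and 5 genes, all detected) did not overlap between the arms, and their part in the results that follow was not tested. In whole tumours, fewer cells of a type and less RNA per cell cannot be told apart.

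Srcap (ENSMUSG00000053877.12) lies on the plus strand of mm10 at chr7:127511983-127561219, and Gm42715 (ENSMUSG00000107023.2) lies over most of it on the same strand at chr7:127519584-127567054. GENCODE M21 gives Srcap 14 transcripts and Gm42715 2. The coding transcript Srcap-207 has 34 exons and 10654 bases. Gm42715-201 has 31 exons and 12746 bases, begins inside Srcap, runs on past its end and is annotated as a target of nonsense-mediated decay whose coding start was not found. Of their exons, 27 have the same ends in both, and 9738 bases are common to the pair, which is 91.4% of Srcap-207 and 76.4% of Gm42715-201. All 9285 coding bases of Gm42715-201 are coding bases of Srcap-207, of which they make up 94.6%.

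**Figure D1:**
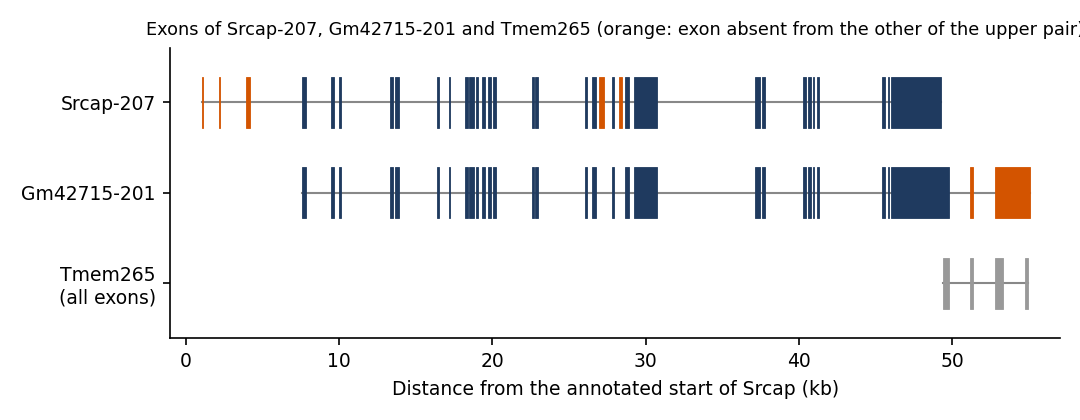
Exons (boxes) of Srcap-207, Gm42715-201 and the small gene Tmem265 along the locus, in kilobases from the annotated start of Srcap. Orange boxes are whole exons that the other of the upper 2 transcripts lacks, 5 in Srcap-207 and 2 in Gm42715-201. All other boxes of the upper pair overlap, and the Tmem265 exons (grey) lie within Gm42715.

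Over all 14 Srcap transcripts, the exon sequence covers 15783 bases, of which 61.7% lie in Gm42715 exons. The other 6045 bases comprise 1203 before the first base of Gm42715 and 4842 after it. Between the 2 transcripts compared here, only a few stretches can tell a Srcap-207 read from a Gm42715-201 read. Srcap-207 alone holds 916 bases, of which 445 lie before the first base of Gm42715-201 and 471 form 2 coding exons that Gm42715-201 skips, exon 21 (chr7:127538949-127539236, 288 bases) and exon 23 (chr7:127540251-127540433, 183 bases). Gm42715-201 alone holds 3008 bases, all of them past the last base of Srcap-207. The sequences at these points are shown because they are where Srcap-207 and Gm42715-201 part from each other. They are spliced plus-strand transcript sequence, with capitals for bases that both transcripts hold and lower case for bases of Srcap-207 only. The first pair covers the start of Gm42715-201 (chr7:127519584-127519628), the next lines the skip of exon 21 (chr7:127538739-127539786) and the last lines that of exon 23 (chr7:127539892-127540685).
Srcap-207 across the annotated start of Gm42715-201: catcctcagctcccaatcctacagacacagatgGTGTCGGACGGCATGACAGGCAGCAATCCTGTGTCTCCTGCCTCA
Gm42715-201 from its first base: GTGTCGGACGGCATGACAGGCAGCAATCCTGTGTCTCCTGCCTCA
Srcap-207 into exon 21: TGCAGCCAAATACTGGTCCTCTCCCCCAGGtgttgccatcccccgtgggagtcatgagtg
Srcap-207 out of exon 21: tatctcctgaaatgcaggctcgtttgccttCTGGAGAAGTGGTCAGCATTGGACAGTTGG
Gm42715-201 across the join without exon 21: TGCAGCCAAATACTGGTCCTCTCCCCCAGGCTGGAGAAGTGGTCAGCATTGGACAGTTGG
Srcap-207 into exon 23: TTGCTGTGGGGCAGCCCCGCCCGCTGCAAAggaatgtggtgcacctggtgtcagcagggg
Srcap-207 out of exon 23: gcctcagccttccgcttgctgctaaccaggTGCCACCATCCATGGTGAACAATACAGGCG
Gm42715-201 across the join without exon 23: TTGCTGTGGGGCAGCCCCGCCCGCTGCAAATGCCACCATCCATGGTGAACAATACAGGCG

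Reads that fall on common exons are divided between the 2 genes by RSEM, the counting tool named in the submitters' processing notes, which estimates the split from the reads that differ. The deposited values carry the trace of that split. Srcap held a whole number of reads in 0 of 8 libraries, whereas Srcap plus Gm42715 was whole within 0.015 reads in 7. In the eighth, the tumour without a mark, the sum was 6538.71 and became 6539.99 once the 1.28 reads of Tmem265 were added. All 1263 exon bases of Tmem265 lie within Gm42715. The sum of the pair is therefore a count of reads, and the row for either gene alone is an estimate whose error is not in the table.

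Srcap measured 137, 164 and 204 CPM in control tumours 1, 2 and 3. It measured 6.49 and 10.1 CPM in the responders, 26.9 and 37.0 CPM in the non-responders and 34.1 CPM in the tumour without a mark. The highest of the 5 treated tumours reached 37.0 CPM, below the lowest control at 137 CPM, and the responders lay below the other 3 treated tumours. The means were 168 ± 33.4 CPM (SD, n = 3) for control ASO and 22.9 ± 13.9 CPM (SD, n = 5) for Smyd3 ASO, 13.6% of the control level. Fitted with all other genes, its log2 fold change between the arms was -2.88 (SE 0.52).

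Gm42715 showed no such gap. Its levels were 227, 148 and 224 CPM in controls 1 to 3, 217 and 190.3 CPM in the responders, 222 and 215 CPM in the non-responders and 219.7 CPM in the tumour without a mark. The groups overlapped, the lowest tumour was control 2, and the means were 199.9 ± 44.7 CPM (SD, n = 3) and 213 ± 12.9 CPM (SD, n = 5), with a log2 fold change of 0.09 (SE 0.15).

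The sum of the 2 rows, which does not depend on how reads were divided between them, was 364, 312 and 428 CPM in the controls. It was 224 and 200.4 CPM in the responders, 249 and 252 CPM in the non-responders and 254 CPM in the tumour without a mark. The highest treated tumour lay below the lowest control. Mean levels were 368 ± 58.0 CPM (SD, n = 3) and 236 ± 23.2 CPM (SD, n = 5), so that the locus stood at 64.1% of the control level under Smyd3 ASO, against 13.6% for the Srcap row. The log2 fold change of the sum was -0.64 (SE 0.13). Smyd3 ASO mean minus control mean was -132 CPM for the sum, -145 CPM for the Srcap row and 13.0 CPM for the Gm42715 row.

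**Figure D2:**
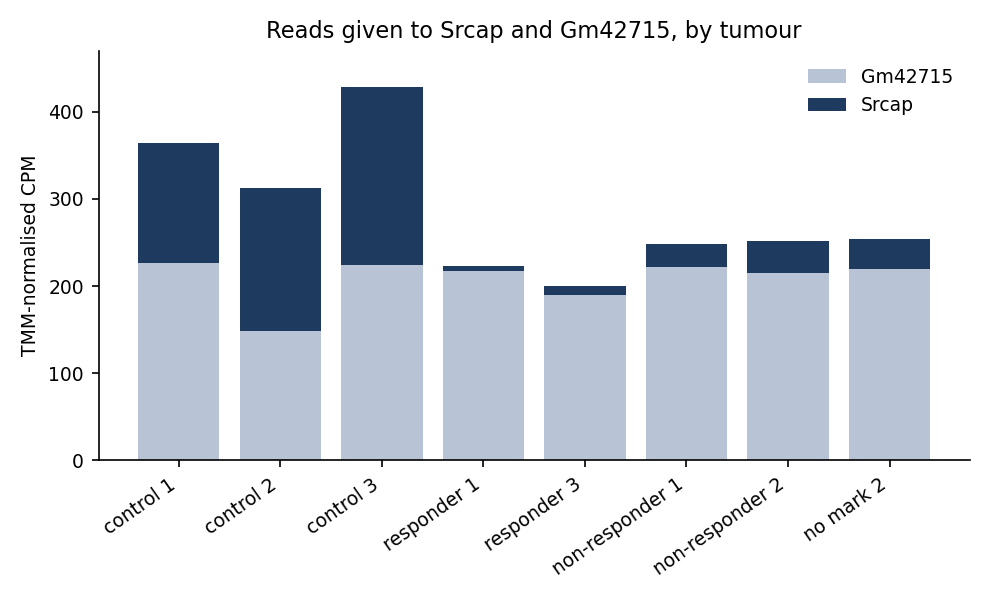
TMM-normalised CPM of Gm42715 (pale) and Srcap (dark) stacked for each of the 8 tumours, so that the height of a bar is the sum. The 3 control bars reach 312 to 428 CPM and the 5 Smyd3 ASO bars 200.4 to 254 CPM, while the dark part shrinks from 137 CPM or more to 37.0 CPM or less.

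The share of the locus's reads given to Srcap moved with the arms as well. It was 37.7%, 52.5% and 47.6% in the controls, 2.90% and 5.04% in the responders, 10.8% and 14.7% in the non-responders and 13.4% in the tumour without a mark. Mean shares were 45.9 ± 7.56% (SD, n = 3) and 9.37 ± 5.18% (SD, n = 5). To see how often such shares move, all same-strand gene pairs with at least 500 common exon bases, at least 100 reads on average and a mean share between 5% and 95% were listed. This survey was chosen after the values of Srcap were seen. In 13 of 199 pairs (6.53%) the shares did not overlap between the arms, and the median absolute difference of mean shares was 2.83 percentage points. The pairs are not separate items, since 58 of their 252 genes occur in more than 1 pair, and 63 pairs, 5 of the 13 among them, hold a gene of the protocadherin clusters. Without these, 8 of 136 pairs (5.88%) did not overlap and the median was 2.56 points. Srcap and Gm42715 differed by 36.5 points, the first of the 199 in rank, followed by Gm45837 and Pde2a with 31.0 points, whose shares overlapped. Gene-level counts do not show where in the locus, the 9738 common exon bases included, the reads fell. They therefore cannot tell a change in splicing from a change in how reads are assigned. The sum of Srcap and Gm42715 does not depend on that assignment and was lower under Smyd3 ASO as well. Its Smyd3 ASO mean minus control mean was -132 CPM, against -145 CPM for the Srcap row and 13.0 CPM for the Gm42715 row. The part of Srcap transcript level, of splicing and of read assignment in the share was not tested.

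Among the treated tumours, the 2 responders had the lowest levels of Srcap and of the sum. Responders averaged 8.28 ± 2.53 CPM (SD, n = 2) of Srcap and non-responders 31.9 ± 7.13 CPM (SD, n = 2), a log2 fold change of -1.95 (SE 0.29). For the sum the values were 212 ± 16.4 CPM and 250.4 ± 2.27 CPM, a log2 fold change of -0.24 (SE 0.18). Neither passed in edgeR's test, and 39.2% of all genes likewise did not overlap between these groups of 2. The tumour without a mark sat with the non-responders on both measures, at 34.1 and 254 CPM. Against the controls, Srcap had a log2 fold change of -4.34 (SE 0.31) in responders and -2.40 (SE 0.28) in non-responders, and the sum -0.80 (SE 0.16) and -0.56 (SE 0.16). These 2 comparisons share the 3 control tumours. Summed muscle markers were 1720.0 and 9149 CPM in the responders and 503 and 766 CPM in the non-responders, and adipocyte markers 16.8 and 181 CPM against 2.12 and 9.50 CPM. The tumour without a mark had 4092 CPM of muscle markers, between the 2 responders, while its Srcap level lay near the non-responders. Summed T and NK cell markers (79.8 and 184 against 35.5 and 67.4 CPM), B and plasma cell markers (320.5 and 631 against 27.04 and 247 CPM) and endothelial markers (177 and 236 against 119 and 154 CPM) were also higher in both responders than in both non-responders. Keratinocyte and carcinoma markers were lower (22298 and 18598 against 39707 and 22893 CPM). The part of these cell types in the Srcap difference was not tested.

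**Figure D3:**
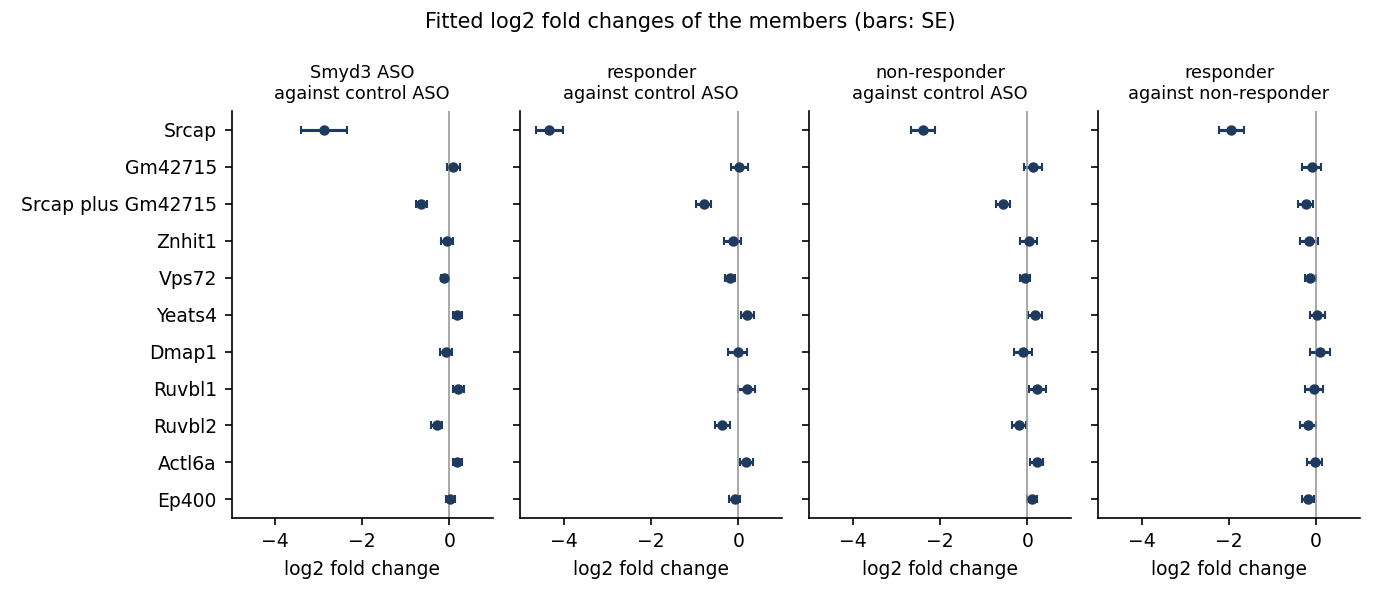
Fitted log2 fold changes (points) with their SE (bars) for the 10 members and the sum of Srcap and Gm42715, in the 4 comparisons. Srcap stands at -2.88, -4.34, -2.40 and -1.95 from left to right and the sum at -0.64, -0.80, -0.56 and -0.24, while the other members lie between -0.36 and 0.23.

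Counted over the members, the calls at an adjusted p of 0.05 in edgeR's quasi-likelihood test were few. Between the arms 0 of 10 members passed, beside 0% of the 16911 genes, although 2630 genes had an unadjusted p below 0.05. Responders against non-responders gave 0 members beside 0% of genes (1436 at an unadjusted p below 0.05), and non-responders against controls 0 beside 0% (1562). DESeq2 called Srcap and no other member in each of these 3 comparisons, beside 1053, 225 and 339 of the 16911 genes. Responders against controls gave 1 member, Srcap, beside 1.66% of genes, and that call was lost when control 1 was left out, as were all 280 calls. Groups without overlap were found for 2 members between the arms (Srcap lower, Yeats4 higher), beside 10.6% of all genes. The count was 3 members (Srcap, Ep400 and Vps72, all lower) for responders against non-responders beside 39.2%. It was 5 (Srcap, Ruvbl2 and Vps72 lower, Yeats4 and Actl6a higher) for responders against controls beside 35.8%, and 2 (Srcap lower, Yeats4 higher) for non-responders against controls beside 24.8%. Since the rule drew on these contrasts, nothing is read from these calls or counts.

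Znhit1 and Vps72 encode subunits that handle H2A.Z within the SRCAP complex. Znhit1, whose zinc-finger protein is needed for H2A.Z exchange, measured 37.6, 48.0 and 32.2 CPM in the controls and 33.0 to 42.4 CPM (median 37.9) in the 5 treated tumours. The treated range lay inside that of the controls, and the log2 fold change was -0.05 (SE 0.14). Vps72, the H2A.Z chaperone, measured 47.1, 47.6 and 44.5 CPM in the controls against 40.7 to 45.3 CPM under Smyd3 ASO, with both responders at 40.7 CPM and the non-responders at 44.1 and 45.3 CPM. Its log2 fold change between the arms was -0.12 (SE 0.08). The overlap came from non-responder 2, while all other treated tumours, the unmarked one at 42.9 CPM included, lay below every control.

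Yeats4 was the other member whose arms did not overlap, in the opposite direction. It measured 18.6, 18.6 and 15.7 CPM in the controls and 19.1 to 21.6 CPM in the treated tumours, with means of 17.7 ± 1.66 CPM (SD, n = 3) and 20.0 ± 1.02 CPM (SD, n = 5). The gap was small, with the highest control at 18.6 CPM and the lowest treated tumour at 19.1 CPM, and the log2 fold change was 0.18 (SE 0.11). Dmap1, a DNA methyltransferase-associated protein present in both complexes, spread over 16.9 to 22.1 CPM in controls and 16.5 to 23.0 CPM under Smyd3 ASO. Its highest and lowest treated tumours were the 2 responders, and the log2 fold change was -0.08 (SE 0.15).

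Ruvbl1 and Ruvbl2 encode partners in 1 ring-shaped ATPase assembly, yet their fold changes had opposite signs. Ruvbl1 measured 55.2, 44.5 and 42.5 CPM in the controls, 53.2 and 54.9 CPM in the responders, 65.4 and 45.9 CPM in the non-responders and 54.0 CPM in the tumour without a mark, a log2 fold change of 0.21 (SE 0.13). Ruvbl2 measured 77.9, 64.8 and 69.4 CPM in the controls, 55.2 and 54.7 CPM in the responders, 72.2 and 52.2 CPM in the non-responders and 55.5 CPM in the tumour without a mark. For Ruvbl2, 4 of the 5 treated tumours lay below every control, and non-responder 1 lay among them, so that the log2 fold change was -0.29 (SE 0.12). Ruvbl1 shares reads with Gm5837, a processed pseudogene copy on another chromosome, but Gm5837 took at most 6.99 of its reads, and their sum was whole in 8 of 8 libraries.

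Actl6a, the actin-related subunit that also serves the BAF remodelers, measured 45.6, 46.6 and 48.9 CPM in the controls. The treated tumours held 56.9 and 50.2 CPM (responders), 62.6 and 47.0 CPM (non-responders) and 50.1 CPM (no mark), and the log2 fold change was 0.18 (SE 0.11). All but non-responder 2 lay above the controls. Non-responder 1 had the highest Ruvbl1 and Actl6a of all 8 tumours and the highest Ruvbl2 of the treated arm. It also had the highest sum of 6 proliferation genes (1343 CPM, against 701 to 968 CPM in the other 7 tumours) and of the keratinocyte and carcinoma markers (39707 CPM, against 18598 to 34168 CPM). Whether carcinoma content has a part in these 3 subunits was not tested.

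Ep400, the other H2A.Z-exchange ATPase and the member closest to Srcap in kind, measured 116, 134 and 125 CPM in the controls. It measured 124 and 112 CPM in the responders, 139 and 130.4 CPM in the non-responders and 129 CPM in the tumour without a mark. The arms overlapped, with means of 125 ± 9.30 CPM (SD, n = 3) and 127 ± 9.93 CPM (SD, n = 5) and a log2 fold change of 0.02 (SE 0.10). Within the treated arm both responders lay below both non-responders, at 118 ± 8.33 against 135 ± 6.31 CPM (SD, n = 2 each), and the log2 fold change was -0.19 (SE 0.13). Ep400 and Srcap-207 are close in length, with longest annotated transcripts of 10.7 kb each.

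**Figure D4:**
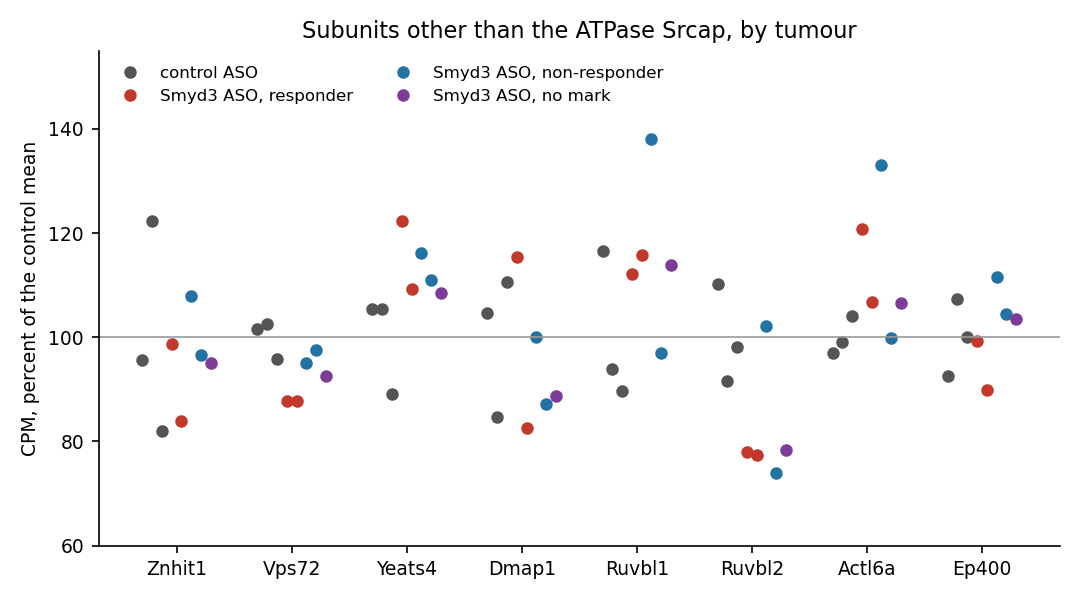
CPM of the 8 members other than Srcap and Gm42715 in each tumour, as a percent of the mean of the 3 control tumours (line at 100). The 5 treated tumours of Yeats4 lie above its controls, 4 of 5 lie below the controls for Ruvbl2, and non-responder 1 is the highest blue point for Ruvbl1, Ruvbl2 and Actl6a.

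Levels were also compared between genes, on a scale of CPM per kilobase of annotated exon sequence, as means over the 8 tumours. That length joins the exons of all transcripts of a gene and exceeds its longest transcript by differing amounts. It was 3886 bases against 2.01 kb for Actl6a, 1860 bases against 1.21 kb for Znhit1 and 1899 bases against 1.68 kb for Ruvbl1. The order below holds for this choice of length, and another choice could change it. Ruvbl1 came first at 27.3 ± 3.93 (SD over 8 tumours), then Ruvbl2 at 21.6 ± 3.33, Znhit1 at 20.6 ± 2.72, the Srcap plus Gm42715 locus at 15.2 ± 4.11, Yeats4 at 13.5 ± 1.20, Actl6a at 13.1 ± 1.50, Vps72 at 12.1 ± 0.71, Ep400 at 9.04 ± 0.65 and Dmap1 at 7.33 ± 0.96 CPM per kb. The ranges over tumours overlapped between each neighbouring pair in that order, except for Vps72 and Ep400. The place of the Srcap plus Gm42715 locus differed between the arms. It averaged 19.6 CPM per kb in the controls, above Yeats4 at 12.5 and Actl6a at 12.1, and 12.5 CPM per kb under Smyd3 ASO, below Yeats4 at 14.1 and Actl6a at 13.7. RUVBL1 and RUVBL2, first in this order, also serve in many complexes outside H2A.Z exchange.

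Other genes of these complexes were taken from lists of known subunits, and none of them passed in any of the 4 comparisons. Of 11 further TIP60 complex genes, 5 had a log2 fold change above 0 between the arms and the median was -0.01, beside 51.8% above 0 and a median of 0.01 over all genes. Trrap, the large scaffold of the complex, measured 154 ± 17.2 CPM (SD, n = 3) in the controls and 124 ± 16.0 CPM (SD, n = 5) under Smyd3 ASO, a log2 fold change of -0.31 (SE 0.13, edgeR adjusted p = 0.299). Ing3, a reader of methylated histone H3, went the other way, at 15.4 ± 3.05 and 19.3 ± 1.73 CPM, with a log2 fold change of 0.33 (SE 0.15, edgeR adjusted p = 0.339). Mrgbp had -0.28 (SE 0.14). Actr6, the one further subunit listed for the SRCAP complex, measured 7.89 ± 0.34 CPM in the controls and 8.96 ± 0.71 CPM in the treated tumours, a log2 fold change of 0.18 (SE 0.14).

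Mean levels of the histones that SRCAP loads were a little higher under Smyd3 ASO, within the spread of the tumours. H2afz and H2afv encode the 2 forms of H2A.Z, and H2afz, named here after its values were seen, measured 163 ± 12.8 CPM (SD, n = 3) in the controls and 184 ± 25.3 CPM (SD, n = 5) under Smyd3 ASO, a log2 fold change of 0.18 (SE 0.13). H2afv measured 40.8 ± 7.37 and 42.3 ± 6.63 CPM, a log2 fold change of 0.05 (SE 0.16). Neither passed in edgeR's test (adjusted p = 0.555 and 0.914). In the list of 8 H2A.Z histones, chaperones and readers, 6 lay above 0 between the arms with a median of 0.04. The 2 below were Nap1l4, a histone chaperone (-0.27, SE 0.10), and Pwwp2b, a reader of H2A.Z chromatin (-0.34, SE 0.20), and the arms of Nap1l4 did not overlap.

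Among 12 INO80 complex genes, whose remodeler shares the RUVBL ring, 6 lay above 0 between the arms with a median of -0.02. Uchl5, a deubiquitinase, measured 29.3, 27.2 and 25.1 CPM in the controls and 31.0 to 41.2 CPM in the treated tumours, without overlap, and its log2 fold change of 0.40 (SE 0.13) did not pass (edgeR adjusted p = 0.191). Ino80 and Nfrkb had -0.05 between the arms (SE 0.15 and 0.11). In responders against non-responders they had -0.38 (SE 0.18) and -0.28 (SE 0.13) and did not pass. Those groups did not overlap for either gene, as for 39.2% of all genes, and 5 of the 12 INO80 genes lay above 0. Between the arms, the 9 partners of RUVBL1 and RUVBL2 in assembly of other complexes had a median of 0.05. Nufip1 lay at 0.20 (SE 0.11), Znhit6 at 0.14 (SE 0.11) and Telo2 at -0.16 (SE 0.11). Of the 14 listed genes of BAF and related complexes 13 were tested, with a median of -0.003. Arid1b, a DNA-binding BAF subunit, measured 91.7 ± 7.86 CPM (SD, n = 3) in the controls and 68.0 ± 9.13 CPM (SD, n = 5) in the treated tumours, and did not pass (log2 fold change -0.43, SE 0.13, edgeR adjusted p = 0.171).

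Most of the other SNF2-family ATPases had lower fitted values in responders than in non-responders. Of 24, 22 had a log2 fold change below 0 in that comparison, with a median of -0.19, beside 51.6% of all genes above 0 and a median of 0.01, and none passed. Other lists leaned below 0 there too, with 10 of 13 BAF genes, 8 of 11 TIP60 genes and 7 of 9 RUVBL partners. INO80 genes had 7 of 12 below 0, the H2A.Z list 4 of 8 and the members 8 of 10, while Actr6 lay above. All these counts rest on the same 2 responders and 2 non-responders. Chd4, the ATPase of the NuRD complex, measured 323 and 322 CPM in the responders and 452 and 435 CPM in the non-responders, a log2 fold change of -0.46 (SE 0.14, edgeR adjusted p = 0.521). Chd3 had -0.28 (SE 0.18) and Chd2 -0.23 (SE 0.16). From the BAF list Arid1a had -0.53 (SE 0.15, edgeR adjusted p = 0.517) and Smarcc2 -0.22 (SE 0.11). Between the arms the 24 ATPases divided into 10 above and 14 below 0, with a median of -0.04.

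Transcript length moved with the same groups. This was examined after the values were seen, over 14809 tested protein-coding genes with the members left out. Relative to the control mean, genes with a longest transcript below 2 kb had a median log2 difference of 0.14 and 0.15 in the responders, 0.09 and 0.02 in the non-responders and 0.04 in the tumour without a mark. For the 351 genes of 10 kb or more, the medians were -0.14 and -0.16 in the responders, -0.10 and -0.03 in the non-responders and -0.07 in the unmarked tumour, while the controls lay at -0.04 to 0.03. In the responder against non-responder comparison 65.2% of these long genes lay below 0, with a median of -0.12. Genes rich in G and C lay lower too, with a median log2 fold change between the arms of -0.13 for the 606 genes whose longest transcript had 60% or more. The controls spread widely in that class, at 0.04, 0.07 and -0.10, and control 3 lay below the non-responders at -0.07 and -0.06, with the responders at -0.16 and -0.20. The longest transcripts of Srcap and Gm42715 had 54.1% and 50.7% G and C. For the 3899 genes in the class of 50 to 55%, the median log2 fold change between the arms was 0.003. Of the 351 long genes, 28 (7.98%) had a log2 fold change between the arms at or below that of the Srcap and Gm42715 sum, against 5.35% of all tested genes. At or below the value of the Srcap row lay 0 of the long genes and 5 of all tested genes (0.03%), Srcap itself included. RNA integrity values are not given in the sources used here, and the part of length or of G and C content in the Srcap levels was not tested.

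**Figure D5:**
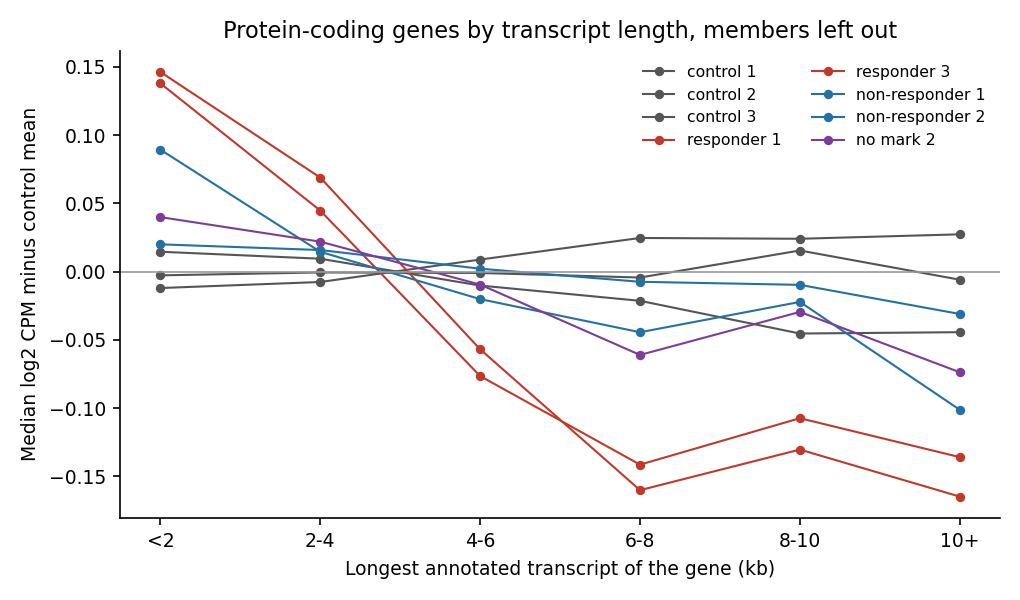
Median log2 CPM minus the mean of the control tumours, for protein-coding genes grouped by the length of their longest annotated transcript in kilobases, with 1 line per tumour. The 2 responder lines run from about 0.14 and 0.15 for genes below 2 kb to -0.14 and -0.16 for genes of 10 kb or more, and the control lines end between -0.04 and 0.03.

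Genes around the locus had smaller log2 fold changes between the arms than Srcap, and than the sum at -0.64. Of 20 genes that overlap Srcap or Gm42715 or lie within 100 kb of Srcap, 10 were tested. None passed between the arms, and their log2 fold changes ran from -0.30 to 0.10. Their median was -0.16, beside 0.01 over all genes. The nearest tested gene was 1700008J07Rik, a transcript on the opposite strand, at -0.05 (SE 0.29). Snora30, Gm28198 and Tmem265, the other nearest annotations, fell below the filter on low counts.

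The genes whose levels tracked Srcap most closely over the 8 tumours, among 10556 compared on log2 CPM, were Ankrd11 (Pearson r = 0.994), Arhgef11 (0.992), Myof (0.980), Plxna1 (0.977) and Man2a2 (0.977). For the sum they were Ndst1 (0.988), Celsr2 (0.985), Man2a2 (0.973), Herc2 (0.971) and Ttll10 (0.965). Ankrd11 measured 257, 246 and 264 CPM in the controls, 123 and 135 CPM in the responders, 165 and 176 CPM in the non-responders and 169.6 CPM in the tumour without a mark, in the same order of groups as Srcap. The 8 points share the division into arms and the library of each tumour. Of the 9 different genes 8 have a longest transcript above the median of 3.34 kb, with a median of 7.09 kb. Of the other members, Vps72 lay nearest to the Srcap row (r = 0.868) and Yeats4 ran opposite (r = -0.783), while Ep400 had r = 0.168 and Gm42715 r = -0.182. For the sum, Ruvbl2 (r = 0.707) and Vps72 (r = 0.697) lay nearest, Yeats4 ran opposite (r = -0.811) and Ep400 had r = 0.038.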

How the data were processed

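Per the submitters' processing notes, bcl2fastq 2.17, cutadapt 1.18, STAR 2.7.0f, RSEM 1.3.0 and the mm10 build were used. The authors deposited RSEM expected counts per gene, which need not be whole numbers. Their annotation is not given in the sources used here, and all 55450 identifiers occur in GENCODE M21, from which exons and transcript sequences were read. Libraries came from a stranded mRNA kit, per the labels' protocols.

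Counts were rounded and fitted with edgeR 4.0.16 (R 4.3.3; TMM scaling, robust quasi-likelihood test, two-sided, Benjamini-Hochberg adjustment over 16911 genes, threshold 0.05). Genes needed 0.424 CPM in at least 2 libraries and 15 counts in all, which kept 99.9% of the counts. The arms were compared in a fit on treatment, the response groups in a 4-group fit of all 8 tumours, so that groups of 2 borrow the spread of the others. The sum of Srcap and Gm42715 was fitted as 1 row in place of both. Printed CPM are TMM-normalised. P-values measure the spread between tumours.

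The members and all lists were chosen with earlier results of these data known. Beside members and Smyd3, the rule named up to 3 genes per list by smallest p, the 4 nearest neighbours and the 5 genes most like Srcap and the sum in log2 CPM (prior count 2, average of at least 3). DESeq2 1.42.0, limma 3.58.1 voom, other scaling, no filter, left-out tumours and a replicate block were alternatives. The steps were tested on simulated counts.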

Additional observations from a re-analysis of the deposited data

Results flagged for a closer look

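Among the 5 Smyd3 ASO tumours, responder 3 had a Gm42715 level of 190.3 CPM, below the other 4, the nearest of which was at 215 CPM. The gap took 0.782 of the group's range, above the 0.71 that Dixon's criterion allows for 5 values. Non-responder 1 had a Ruvbl2 level of 72.2 CPM, above the other 4, the nearest of which was at 55.5 CPM, and that gap took 0.838 of the range. Chance alone marks about 1 group in 20 in this way.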

How the results depend on the processing

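Of 550 member log2 fold changes recomputed under the alternatives, 527 moved by less than the spread between replicates and 23 by more. The 1 called member value, Srcap in responders against controls, kept its sign. Some values that were not called changed sign. Ep400 kept its sign between the arms in 10 of 14 settings, and Dmap1 in responders against controls in 9 of 12. Srcap stayed below 0 throughout, from -3.67 to -2.65 between the arms, and so did the sum, from -0.73 to -0.53. Counts of calls depended on the tool. Between the arms, DESeq2 called 1053 genes and 1 member (Srcap), no count filter gave 52 genes, and leaving out 1 tumour gave 0 to 258 genes (258 without non-responder 1, 5 without control 1). Responders against non-responders gave 225 genes and 1 member with DESeq2, 7 genes without the filter and 0 to 21 with a tumour left out (21 without responder 1). Responders against controls gave 1153 genes with DESeq2, 135 with voom, 499 without the filter and 0 to 287 with a tumour left out (0 without control 1, 6 without control 3, 33 without responder 3, 107 without control 2, 134 and 169 without non-responder 2 or 1), with 1 member called except without control 1, where 0 were. Non-responders against controls gave 339 genes and 1 member with DESeq2, and 32 genes and 1 member without the filter. The cause of these differences was not tested. Same-numbered tumours did not deviate together (correlations -0.034, 0.00015 and 0.076, and no control correlated best with its own number). A replicate block over the 6 numbered tumours called 245 genes and 0 members, against 286 genes for the same tumours without the block. Exon and junction counts were not used here, which limits what can be said of Srcap apart from Gm42715.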
